A study of Mus musculus with 2 samples.

Results

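Hox genes, the homeobox transcription factor genes that lie side by side in the Hoxa, Hoxb, Hoxc and Hoxd clusters, were followed in primary mouse myoblasts with and without Wnt3a. A gene was a member if its symbol was Hoxa, Hoxb, Hoxc or Hoxd followed by a number only and at least 1 probe set of the array was annotated to it alone. This gave 33 genes of the 18193 named on the array, covered by 48 probe sets, and each gene was represented by its brightest one. The RefSeq gene table of the mouse lists 39 Hox genes. Of the others, Hoxb8 and Hoxd4 shared their probe sets with a neighbour, and the rest were not analysed here.

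Both groups were myoblasts, the dividing precursors of muscle fibres, taken from newborn mice of the Sv129 strain and grown on laminin and collagen. The control cells spent 4 hours in DMEM with 2% horse serum. The other cells spent the same 4 hours in that medium with Wnt3a added at 100 ng/ml. Wnt3a is a ligand whose receptors protect β-catenin from degradation, so that it can act with TCF/LEF factors on DNA. Each group had 1 array, so no difference has a replicate, an error or a test, and the number of arrays limits the precision. The muscles from which the cells came are not given in the sources used here, nor is whether both arrays stem from 1 culture.

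Hox proteins tell cells where they are along the body axis. Within a cluster the genes carry paralogue numbers from 1 to 13, and low numbers are active towards the head and high numbers towards the tail and, in limbs, towards the digits. Cells of mesodermal origin, muscle precursors among them, can keep such a Hox pattern in culture. In the embryo, Wnt signals take part in switching the clusters on, partly through the Cdx factors.

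The promoter windows below are shown because β-catenin reaches DNA through TCF/LEF factors. The TCF/LEF core motif was searched on both strands as CTTTG followed by AA, AT, TA or TT, and capitals mark a match, which on the other strand reads as its reverse complement. Hoxa7 and Hoxa10 were among the members with the larger differences, Hoxa11 was the member at the brightness floor with matches, and Hoxd8 was the member that held CTTTGAT. Each window runs from 250 bases before to 50 bases after a RefSeq transcript start in GRCm38.p6, on the strand of the gene, which is the minus strand for the 3 Hoxa genes and the plus strand for Hoxd8. The windows are chr6:52218524-52218823 for Hoxa7, chr6:52240805-52241104 for Hoxa10, chr6:52245761-52246060 for Hoxa11 and chr2:74704365-74704664 for Hoxd8.
Hoxa7: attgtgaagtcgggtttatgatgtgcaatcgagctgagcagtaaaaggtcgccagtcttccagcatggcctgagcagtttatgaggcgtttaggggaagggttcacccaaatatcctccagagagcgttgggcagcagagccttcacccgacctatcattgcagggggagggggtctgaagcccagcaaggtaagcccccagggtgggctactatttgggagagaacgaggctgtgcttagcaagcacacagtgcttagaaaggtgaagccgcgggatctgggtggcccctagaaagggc
Hoxa10: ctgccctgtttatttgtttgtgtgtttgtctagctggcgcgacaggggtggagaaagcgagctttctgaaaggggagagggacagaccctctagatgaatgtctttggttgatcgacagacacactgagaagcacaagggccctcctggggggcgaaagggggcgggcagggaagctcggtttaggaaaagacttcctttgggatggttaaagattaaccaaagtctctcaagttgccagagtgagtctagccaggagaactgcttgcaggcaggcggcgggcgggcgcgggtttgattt
Hoxa11: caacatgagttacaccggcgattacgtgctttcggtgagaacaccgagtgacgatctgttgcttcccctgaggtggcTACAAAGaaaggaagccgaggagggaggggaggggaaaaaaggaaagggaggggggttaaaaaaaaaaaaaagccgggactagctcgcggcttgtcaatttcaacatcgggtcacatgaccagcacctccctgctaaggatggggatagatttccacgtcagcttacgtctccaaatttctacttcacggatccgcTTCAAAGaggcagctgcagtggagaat
Hoxd8: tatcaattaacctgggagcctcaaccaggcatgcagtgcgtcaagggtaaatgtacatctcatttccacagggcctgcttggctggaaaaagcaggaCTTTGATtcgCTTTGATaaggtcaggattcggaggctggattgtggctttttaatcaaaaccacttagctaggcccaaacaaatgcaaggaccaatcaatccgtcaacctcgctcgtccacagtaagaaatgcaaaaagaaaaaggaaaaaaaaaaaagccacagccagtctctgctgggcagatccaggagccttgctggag

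RefSeq windows were found for 19 of the 33 members, 21 windows in all. CTTTGAT stood in 1 of these 21 windows (4.76%), that of Hoxd8, where it occurred 2 times. It stood in 3.73% of all 32851 promoter windows of the table and in 2.53% of those of measured genes. Any of the 4 spellings stood in 3 of the 21 windows (14.3%), those of Hoxa11, Hoxd8 and Hoxd12. It was 16.9% for all windows and 11.3% for those of measured genes, so the background chosen decides the direction. Of the 10 windows of members at the floor, 1 (10%) held any of the 4 spellings and 0 held CTTTGAT. The Hoxa7 window held no match, nor did the printed Hoxa10 window or the other Hoxa10 window, chr6:52234890-52235189. Among the 10 windows of members at the floor the median GC content was 57.7%, against 61.0% for the windows of all measured genes and 52.7% for all windows. A match is a string of letters and not a binding site, and its absence concerns this window only.

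A gene was counted as measured where log2(intensity + 1) reached 6, an intensity of 63, on at least 1 array. This floor was set at 1 brightness for all probe sets, so a gene below it may still be transcribed. Of the 33 Hox genes, 20 (60.6%) were measured, and 62.6% of all genes were. All 20 were at the floor on both arrays, as were 97.1% of all measured genes. Brightness depends on each probe set's own probes, so the levels of different genes were not ranked. The Hoxc cluster had all 7 of its members at the floor, the Hoxa and Hoxb clusters 6 of 9 each, and the Hoxd cluster 1 of 8. At a floor of 7 these counts were 6 for Hoxc, 5 for Hoxa, 2 for Hoxb and 0 for Hoxd. By position, 3 of 7 members with the numbers 1 to 3 were at the floor, 9 of 12 with the numbers 4 to 8, and 8 of 14 with the numbers 9 to 13. All members of paralogue groups 5, 6 and 9 reached it, and neither of the 2 members of group 1 did. On the brighter of the 2 arrays, Hoxd9 at 6.13 and Hoxb5 at 6.17 lay just above the floor, and Hoxb13 at 5.69 and Hoxa4 at 5.58 just below it.

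**Figure D1:**
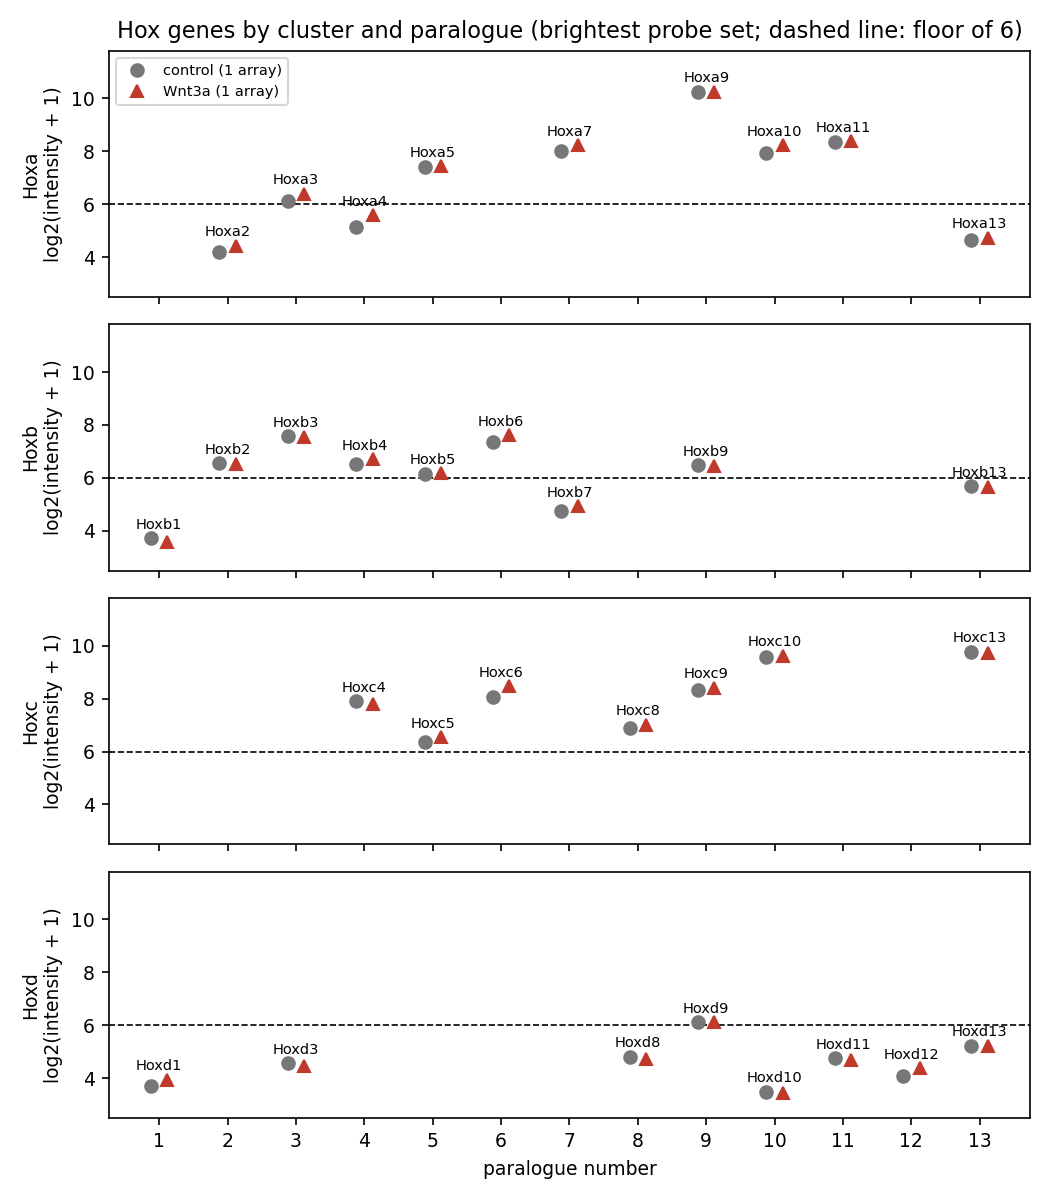
Level of each Hox gene, as log2(intensity + 1) of its brightest probe set, by paralogue number, with 1 panel per cluster. Grey circles are the control array, red triangles the Wnt3a array and the dashed line the floor of 6; all 7 Hoxc members lie above it and 7 of the 8 Hoxd members below it on both arrays.

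None of the 20 measured Hox genes differed by 1.5-fold between the arrays. No member was at least 1.5-fold higher, where 0.886% of all 11397 measured genes were, and none was at least 1.5-fold lower, where 0.342% were. At these background shares, fewer than 1 such gene would be reached among 20, so the count of 0 is no result about Hox genes. The differences ran from -0.10 for Hoxc4 to 0.42 for Hoxc6 on the log2 scale, and their median was 0.038, against -0.0057 for all measured genes. Of the 20, 14 were higher with Wnt3a and 6 lower, while 47.3% of all measured genes were higher. The 14 include Hoxc5, whose probe sets gave opposite signs. With the probe set of the largest difference 13 of 20 were higher, as with a loess trend removed. With the mean of all probe sets it was 12 of 18. A difference of at least 0.2 was found for 5 members, Hoxc6, Hoxa10, Hoxb6, Hoxa3 and Hoxa7, all of them higher. Of all measured genes, 7.11% were at least 0.2 higher and 8.67% at least 0.2 lower. The lines at 0.2 and the grouping by cluster and number were chosen after the values were seen.

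These signs hold relative to most genes on the arrays. The 42 probe sets of the spike-in controls, RNAs added in known amounts, were all lower on the Wnt3a array, with a median difference of -0.19. Scaling on them would make all 20 measured Hox genes higher, as it would 90.4% of measured genes, and would bring Hoxc6 to 0.61, past 1.5-fold. The only repeat measurement within an array pair is between probe sets of 1 gene, with a pooled SD of 0.12 over 5084 genes, which is the SD referred to below. Over the 5 Hox genes with several probe sets at the floor it was 0.19. Neither SD holds noise between cultures, labellings or hybridisations. Differences from -0.33 to 0.33 took in the central 95% of measured genes, and among the measured Hox genes Hoxc6 alone lay outside.

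**Figure D2:**
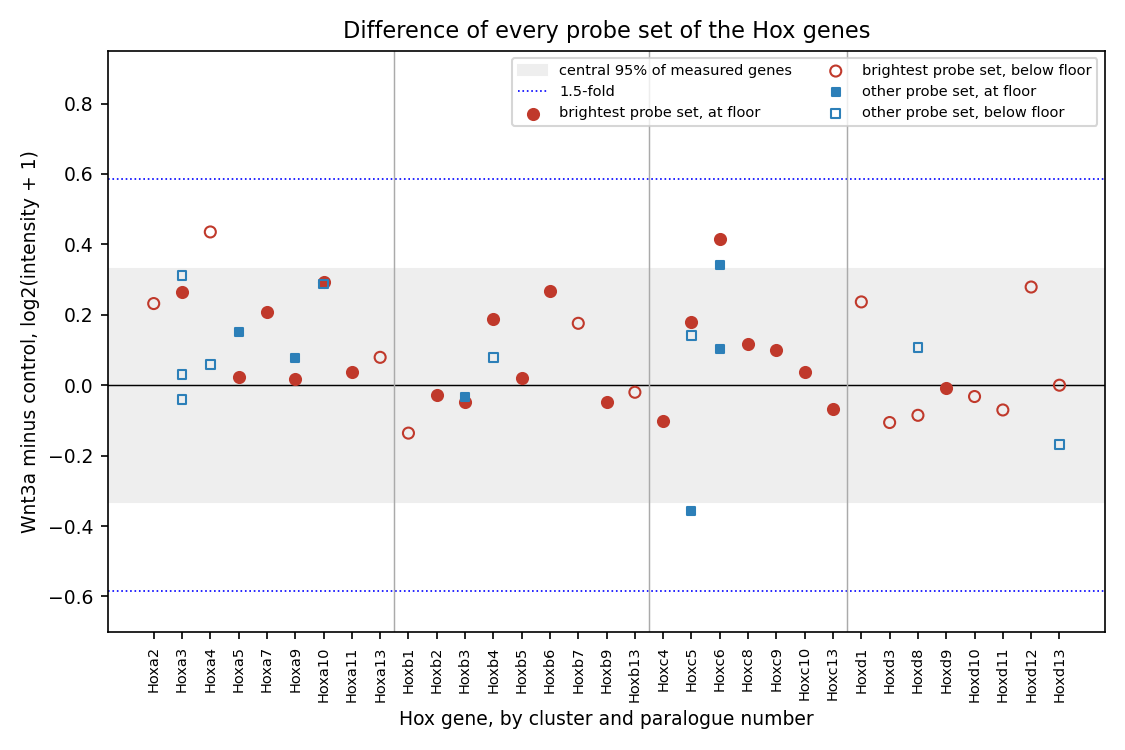
Wnt3a minus control, as the difference of log2(intensity + 1), for each of the 48 probe sets of the Hox genes, in cluster order. Circles are the brightest probe set of a gene, squares its other probe sets, filled symbols reach the floor; no probe set reaches the dotted 1.5-fold lines, and Hoxc6, Hoxa4 and a second probe set of Hoxc5 lie outside the grey central 95% of measured genes.

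In the Hoxa cluster every member was higher with Wnt3a, by small amounts. The measured members were Hoxa3, Hoxa5, Hoxa7, Hoxa9, Hoxa10 and Hoxa11, with a median difference of 0.12. All 9 members were higher, counting Hoxa2, Hoxa4 and Hoxa13 below the floor, where 49.8% of all genes on the array were. Hoxa2, Hoxa4 and Hoxa13 had intensities of at most 46.8, so their differences carry little weight. On their brightest probe sets Hoxa5 (0.02), Hoxa9 (0.02) and Hoxa11 (0.04) moved by less than the SD between probe sets. All 9 stayed higher in each of the 14 alternative settings that leave the fold threshold as it is, the 4 scalings among them. Most of these settings could not turn a sign here. Other floors leave the differences as they are, and another pseudocount cannot turn the sign of a probe set. Setting the median difference to 0 and spike-in scaling raise every difference. Only the other choices of probe set, quantile normalization and removal of a loess trend could have made a Hoxa gene lower. Of the cluster's 16 probe sets 15 were higher, the other being a dim one of Hoxa3 at -0.04. The probes of a gene and the genes of an array share 1 hybridisation per group, so these are not independent observations.

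Hoxa10, which patterns the lumbar region and the upper limb segment, had an intensity of 246 in the control and 301 with Wnt3a, a log2 difference of 0.29 (1.22-fold). Its second probe set, too dim for the floor, gave the same difference of 0.29, from 32.1 to 39.4. Hoxa3, a gene of pharyngeal arch and thymus development, had 69.3 in the control and 83.5 with Wnt3a, a difference of 0.27. Its 3 dimmer probe sets, all below the floor, gave 0.31, 0.03 and -0.04. The probe sets of Hoxa10 thus gave like values, while those of Hoxa3 spread more widely than the 6 measured Hoxa genes did.

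Hoxa7, a thoracic patterning gene, had 258 in the control and 298 with Wnt3a, a difference of 0.21 on its only probe set. Hoxa5, needed for the neck and shoulder skeleton and the lung, had 169 and 171 on a probe set that can match several transcripts (0.02). Its other probe set had 158 and 175 (0.15). The difference of Hoxa5 therefore depended on which probe set stood for it, although both were higher.

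Hoxa9, a posterior gene also known from blood stem cells and leukaemia, had 1208 and 1222, a difference of 0.02, and 173 and 182 on its second probe set (0.08). Hoxa11, which patterns the forearm and lower leg, had 324 and 333 on its only probe set (0.04). Hoxa9 and Hoxa11 flank Hoxa10 on the chromosome, and their values moved by less than the SD between probe sets, whereas that of Hoxa10 moved by more. Hoxa11os, a noncoding gene on the opposite strand beside Hoxa11, had 189 in the control and 215 with Wnt3a (0.19), and 12.1 and 13.1 on a dim probe set.

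The 3 Hoxa members below the floor had differences from 0.08 to 0.44. Hoxa4, a gene of the neck vertebrae, had the largest of these, from an intensity of 34.4 to 46.8, with 0.06 on a second, dimmer probe set. Hoxa2, which specifies the second pharyngeal arch, went from 17.4 to 20.6, and Hoxa13, the digit and hindgut gene, from 24.2 to 25.6.

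In the Hoxb cluster the members in the middle were higher and those at both ends lower, except that spike-in scaling made all 6 measured members higher and removal of a loess trend made Hoxb5 lower. Hoxb4, Hoxb5, Hoxb6 and Hoxb7 had positive differences, and Hoxb1, Hoxb2, Hoxb3, Hoxb9 and Hoxb13 had negative ones. Among the 6 measured members 3 were higher and 3 lower, and the median was -0.0042. None of the negative measured values was larger in size than 0.05, which is below the SD between probe sets.

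Hoxb6, expressed in trunk mesoderm, was the member of this cluster with the largest difference, from 164 to 197 (0.27) on its only probe set. Hoxb4, known for expanding blood stem cells, went from 91.5 to 104 (0.19), with 0.08 on a dimmer probe set. Hoxb5 had 70.2 and 71.2, a difference of 0.02. The differences of Hoxb6 and Hoxb4 lay inside the central 95% of genes and beyond the SD between probe sets over all genes. That of Hoxb4 was about equal to the SD over the Hox genes.

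Hoxb3, a hindbrain patterning gene, had 192 and 185 on 1 probe set (-0.05) and 163 and 159 on the other (-0.03). Hoxb2, likewise a hindbrain gene, had 93.6 and 91.8 (-0.03). Hoxb9, a gene of the rib-bearing trunk, had 88.2 and 85.3 (-0.05). These 3 genes were nearly level between the arrays. Below the floor, Hoxb7 went from 25.9 to 29.4 and Hoxb1, the gene of the fourth hindbrain segment, from 12.2 to 11.02, while the prostate and tail gene Hoxb13 had 50.7 and 49.97 (-0.02). Hoxb5os, a noncoding gene beside Hoxb5, had 112 and 107 (-0.07).

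The Hoxc cluster held the member with the largest difference among measured Hox genes, Hoxc6. On the brightest probe sets 5 of its 7 members had higher and 2 had lower values, and the median was 0.099. Hoxc5 is among the 5, although its probe sets gave opposite signs. Hoxc6, a gene of the anterior trunk and the forelimb level, had an intensity of 263 in the control and 352 with Wnt3a, a difference of 0.42 (1.33-fold). Its 2 other probe sets, both at the floor, went from 247 to 313 (0.34) and from 86.9 to 93.3 (0.10). All 3 were higher, with an SD of 0.16 between them. Of all measured genes, 1.71% had a difference at least as high as that of the brightest one, which is of the kind that can match several transcripts.

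Hoxc5, the neighbour of Hoxc6, gave opposite signs on its probe sets. Its brightest probe set went from 81.7 to 92.7 (0.18), and another at the floor from 81 to 63.1 (-0.36). Another, below the floor, gave 0.14, and the mean over all 3 was -0.01. No direction can be given for this gene. Hoxc4, at the end of the cluster, was the lowest measured member, with 239 and 222 (-0.10, 1.07-fold lower).

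Hoxc8, which patterns the lower ribs and the motor neurons of the forelimb, went from 118 to 128 (0.12). Hoxc9, a gene of thoracic identity, went from 317 to 340 (0.10). Hoxc10, a gene of lumbar and hindlimb levels, had 769 and 789 (0.04). These 3 differences lay within the SD between probe sets. Hoxc13, known for its role in hair and nails, had 876 and 835 (-0.07). With 1 probe set there is no second measurement of its brightness, which is well above the floor on both arrays.

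The Hoxd cluster lay below the floor except for Hoxd9, a gene of posterior trunk and limb, with 68.9 and 68.5 (-0.01). The intensities of the other 7 members on the brightest probe set ran on the log2 scale from 3.46 to 5.23. Hoxd8 had 27.05 and 25.4, and the 2 copies of CTTTGAT in its printed window stood beside a difference of -0.09, and its dimmer probe set gave 0.11, so no direction can be given. Hoxd10, Hoxd11 and Hoxd13, which shape the limb and the digits, differed by -0.03, -0.07 and 0, the last with the identical value of 36.5 on both arrays and -0.17 on its second probe set. Hoxd12 (0.28), Hoxd1 (0.24) and Hoxd3 (-0.11) had intensities of at most 22.9. At such intensities 1 intensity unit is a large part of the value, so these differences carry little weight.

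Read along the numbers and across clusters, all 7 measured members of groups 5, 6, 7 and 8 were higher, 1 each in groups 7 and 8, with the reservations on Hoxc5 and Hoxb5 above. In groups 4 to 8 together, 8 of 9 measured members were higher, with a median of 0.18 and Hoxc4 as the exception. In groups 9 to 13 it was 5 of 8, with a median of 0.027, and in groups 1 to 3 it was 1 of 3, with a median of -0.028. Both measured members of group 6, Hoxc6 and Hoxb6, were among the 5 with differences of at least 0.2. The 2 measured members of group 10 differed by 0.29 (Hoxa10) and 0.04 (Hoxc10). These groups were formed after the values were seen and no difference between them was tested.

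**Figure D3:**
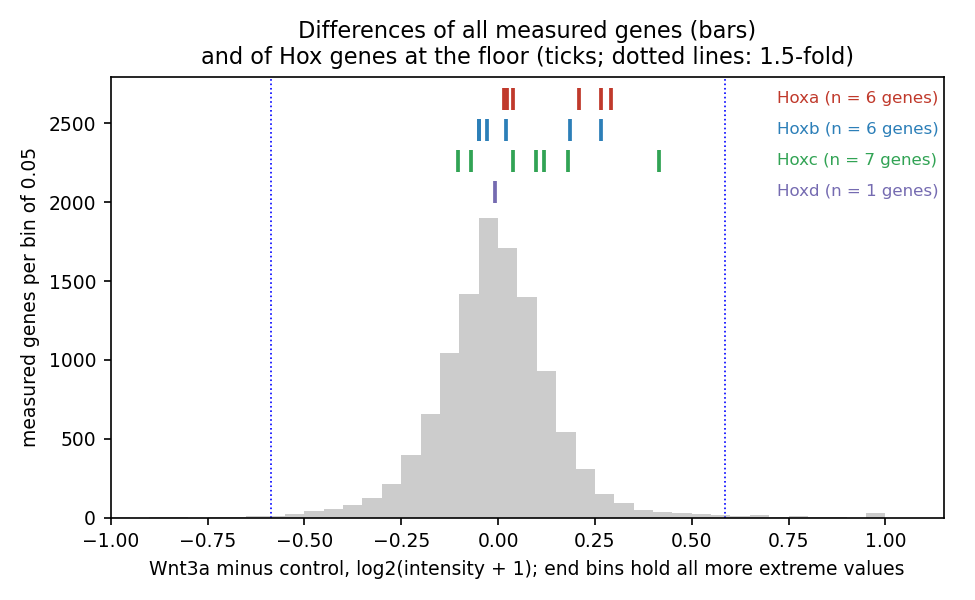
Differences between the arrays (Wnt3a minus control, log2 scale) of all 11397 measured genes as grey bars, and of the 20 measured Hox genes as ticks, 1 row per cluster. The Hox genes lie within the bulk, the 6 Hoxa ticks on its upper side, and none reaches the dotted 1.5-fold lines.

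Transcripts for partners of Hox proteins were mostly measured and differed little. TALE homeobox proteins (Pbx, Meis and Pknox) bind DNA together with Hox proteins and sharpen their choice of sites. Of 8 such genes on the array 7 were measured, 5 higher and 2 lower, none by 1.5-fold (median 0.048). The largest differences were those of Meis1 (-0.22, from 7.71 to 7.48), Pknox2 (0.16), Meis2 (0.10) and Meis3 (-0.08).

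Polycomb proteins keep Hox genes silent through marks on histones, and Trithorax proteins keep them active. All 28 Polycomb genes on the array were measured, 10 higher and 18 lower (median -0.043), none by 1.5-fold on its brightest probe set. Cbx2, at -0.19, was past 1.5-fold lower on its other probe set, at -0.65. Phf1 (0.33), Eed (-0.30), Scmh1 (0.29) and Suz12 (-0.22) differed most, and Suz12 reached 0.13 on another of its probe sets. Of 12 measured Trithorax and demethylase genes 5 were higher and 7 lower (median -0.019), and spike-in scaling would make both medians positive, at 0.15 and 0.17. Kdm6b, a demethylase that removes the Polycomb mark, had the largest difference in this group, -0.46 (from 11.32 to 10.86), with -0.01 at the other end of its 3 probe sets. Wdr5 (-0.20), Kmt2a (0.15) and Kdm6a (-0.12) followed.

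Genes of the signals that set Hox patterns in the embryo were mostly lower by small amounts. These are the Cdx factors, the retinoic acid pathway and Gdf11. Of 20 on the array 12 were measured, 2 higher and 10 lower, with a median of -0.14, and 51.2% of all measured genes were lower. The retinoic acid receptor gene Rara differed by -0.25 (from 7.67 to 7.42), Rdh10, an enzyme of retinoic acid synthesis, by 0.22, Gdf11 by 0.21 and Cdx2 by -0.20. Cdx2 was at 6.09 in the control and 5.89 with Wnt3a, so it crossed the floor. Cdx1, a Wnt target in the embryo, and Cdx4 were below the floor on both arrays, at 5.08 and 3.80 in the control. None of the 12 differed by 1.5-fold, and scaling on the spike-ins would turn the median to 0.048, and at a floor of 7 it was -0.058.

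Positional factors outside the clusters were measured for 6 of 18 genes. Tbx15, a T-box gene of limb and trunk mesoderm, differed by -0.37 (-0.51 on its other probe set), Tbx1, a gene of head muscle, by 0.31, Shox2 of the upper limb segment by 0.26 and Pitx1 of the hindlimb by -0.10. Pitx1 was at 6.07 in the control and 5.96 with Wnt3a, close to the floor. The limb-type genes Tbx5 of the forelimb and Tbx4 of the hindlimb were below the floor on both arrays, at 5.47 and 5.05 in the control. The median of the 6 was 0.051, with 4 higher and 2 lower, and without a floor the median was -0.0040.

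**Figure D4:**
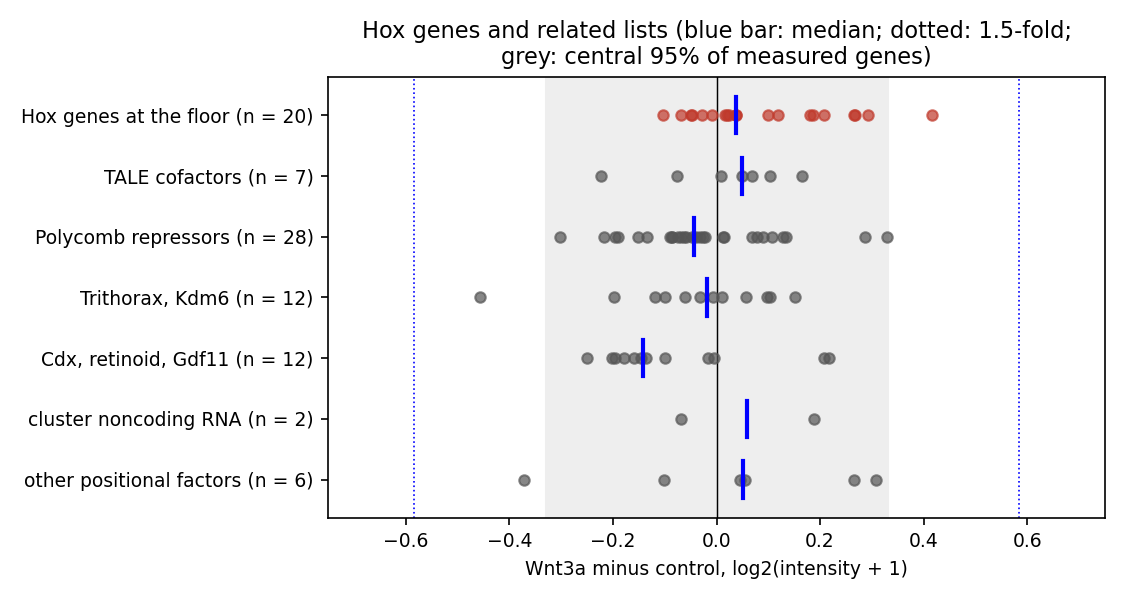
Differences (Wnt3a minus control, log2 scale) of the measured Hox genes in red and of the measured genes of 6 related lists in dark grey, 1 point per gene, with the median as a blue bar. The medians run from -0.14 for the Cdx, retinoid and Gdf11 list to 0.059 for the 2 cluster noncoding RNAs, and no point reaches the dotted 1.5-fold lines.

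The cells carried the markers of their label. All 9 myoblast markers were measured, Myod1, Pax7, Cdh15, Itga7 and Chrna1 among them. Vcam1, Myog and Myf5 differed in size by more than any Hox gene, and Des did not. The adhesion gene Vcam1 was 1.55-fold lower (-0.63), the differentiation factor Myog differed by -0.50, the determination factor Myf5 by 0.49 and the filament gene Des by 0.32. Of 9 fibroblast markers on the array 2 were measured, Col3a1 (-0.24, from 13.42 to 13.19) and Dpep1 (0.03). Col3a1 was thus bright on both arrays. Pdgfra, Dpt, Lum, Dcn, Col1a1, Thy1 and Pi16 were below the floor. For Schwann cells 4 of 6 markers were measured, Erbb3 (0.13), Mbp (-0.08), Sox10 (0.07) and Ngfr (0.04). For endothelium 3 of 6 were, Tek, which crossed the floor from 6.16 to 5.34 (-0.82), Egfl7 (-0.07) and Kdr (0). For leukocytes 3 of 6 were, Laptm5 (-0.28), Fcer1g (-0.15) and Csf1r (-0.03). Of all genes on the array 62.6% reached the floor, so these counts are no result about these cell types. Among the Schwann cell markers, Mbp reached the floor on 1 of 8 probe sets, Ngfr on 1 of 3, Erbb3 on 1 of 2 and Sox10 on 2 of 3. Vcam1 and Tek were the markers past 1.5-fold, both lower. The log2 of the summed marker intensities in the control and the Wnt3a array was 13.46 and 13.24 for fibroblasts, 9.62 and 9.69 for Schwann cells, 8.77 and 8.63 for endothelium and 8.59 and 8.53 for leukocytes. No marker of these cells was listed at 0, but neither was any probe set, the lowest intensity being 7.07. The absence of a 0 therefore says nothing about these cells. The part of these cells in the Hox values was not tested, and in bulk RNA fewer cells of a type and less RNA per cell cannot be told apart.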

How the data were processed

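Total RNA was taken up with Trizol and turned into biotin-labelled cRNA with an Affymetrix 3′ kit, per the labels' protocols. The deposited table gives 1 linear intensity per probe set and array (45101 probe sets, 7.07 to 37075). RMA, affy and limma are named in the submitters' processing notes, without versions, order or build; the step that made them linear is not named there.

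Values were taken as log2(intensity + 1). The platform annotation named the genes, and all 33 Hox Entrez identifiers were found in the RefSeq table (GRCm38.p6), with 0 symbols changed. Each gene was represented by the probe set with the highest mean log2 value, and the floor was 6. Measured Hox genes are all named, as are the 4 measured members of each related list with the largest differences. No other Hox gene reached the 0.5 set for naming, but all are given. Members and lists were chosen with earlier results of these data known. Planned protein comparisons were not made. The procedure was checked on simulated data. Computations ran in Python 3.11.15 with pandas 2.3.3, numpy 2.4.6 and, for loess, statsmodels 0.14.6.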

Additional observations from a re-analysis of the deposited data

How the results depend on the processing

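With 1 array per group no array could be left out. For the same reason no paired test was possible, and whether both arrays form a pair is not given. The number of Hox genes at the floor was 33 without a floor, 13 at a floor of 7 and 8 at a floor of 8. No alternative made a Hox gene 1.5-fold lower. The count of those 1.5-fold higher became 1 under spike-in scaling, and 1 (Hoxc6) at the lower of the 2 other fold thresholds. The shares of all measured genes past these 2 lines are not given here, so neither count is a result about Hox genes. Without either change, 1.71% of all measured genes had a difference at least as high as that of Hoxc6. The median of the measured Hox genes became 0.23 under spike-in scaling and moved by less than 0.12 otherwise. The same scaling gave medians of 0.24 for the TALE cofactors, 0.15 for Polycomb, 0.17 for Trithorax, 0.048 for the Cdx and retinoid list, 0.25 for the noncoding RNAs, 0.24 for the other positional factors, and 0.066 for myoblast, 0.087 for fibroblast, 0.24 for Schwann cell, 0.12 for endothelial and 0.035 for leukocyte markers, since it adds 0.19 to every difference. The noncoding RNA median was 0.19 at a floor of 7 and -0.069 with the mean of all probe sets, as 1 gene was left. That of the positional factors was -0.0040 without a floor and 0.17 with the probe set of the largest difference, which also put 1 Polycomb gene, Cbx2, past 1.5-fold lower. The Cdx and retinoid median was -0.058 at a floor of 7. Fibroblast markers had 0.026 with a pseudocount of 16, 0.028 without a floor, 0.031 at a floor of 5, -0.24 at floors of 7 and 8, -0.39 with the mean of all probe sets and -0.26 with the probe set of the largest difference. Leukocyte markers had 0.035 without a floor, 0.037 with the mean of all probe sets and 0.056 without probe sets that can match several transcripts. Removing a loess trend changed the sign of 1 measured Hox gene, and the mean of all probe sets and the probe set of the largest difference that of 1 each. The cause of these shifts was not tested where none is given.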

Other observations

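Probe sets annotated to a pair of Hox genes cannot be given to either. The one for Hoxb7 and Hoxb8 was at 37.4 in the control and 42.4 with Wnt3a (0.18). Of the 2 for Hoxd3 and Hoxd4, the brighter went from 59.0 to 75.3 (0.35), crossing the floor, and the other from 17.6 to 16.3 (-0.11). The crossing probe set stood in a cluster whose members otherwise lay below the floor except Hoxd9.

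The share of genes higher with Wnt3a varied with brightness. It was 55.5% for measured genes with a mean log2 level from 6 to 7, 49.6% from 7 to 8, 43.4% from 8 to 9 and 43.8% from 9 to 11. The Hox genes in these ranges were higher in 5 of 8, 2 of 4, 5 of 5 and 2 of 3 cases.

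Hoxc4 and Hoxc10 showed a trait of the deposited table. Their intensities of 238.74 and 222.24, and of 768.74 and 789.24, all left the same remainder of 0.23864 after division by 0.5. On both arrays together this remainder, within 2e-05, was found for 1614 of 45101 probe sets (3.58%), none with a value under 88.2, and the next most common remainder made up 0.0765% of values. The step of the processing that gave it was not tested.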
